A study of Homo sapiens with 13 samples.

Results

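Epithelial cells are held together by cadherins, desmosomes and tight junctions and are filled with keratin filaments, whereas mesenchymal cells rely on other cadherins, vimentin filaments and secreted matrix. Transcription factors of the SNAI, ZEB and TWIST families are known to repress epithelial genes such as CDH1 by binding short E-box motifs, and factors such as GRHL2 and the splicing regulators ESRP1 and ESRP2 act on the epithelial side. In prostate carcinoma, shifts along this axis are studied in relation to invasion and to the response to taxanes. The 42 genes described here are named junction, keratin and epithelial regulator genes (28) and named mesenchymal genes and factors of the epithelial to mesenchymal transition (14). They were taken by name from the 67882 gene identifiers of the count table, where each of the 42 matched 1 identifier, and 41 of them passed the filter on low counts.

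Polyadenylated RNA was sequenced from PC3 cells, a human prostate cancer line, engineered with a short hairpin RNA that targets TIMP1, an inhibitor of metalloproteinases that cells secrete. All 4 groups carry this hairpin, and cells without it were not analysed here. The groups were treated for 48 h with Vehicle (3 libraries), with 1 nM Docetaxel, a taxane that stabilises microtubules (4 libraries), with 5 µM Adapalene, a retinoid drug and agonist of retinoic acid receptors (3 libraries), or with both drugs, labelled Combo (3 libraries, doses not restated in the labels). The replicates are called technical in the design text, so every p-value measures the spread among technical replicates of 1 cell line. Levels are given in CPM, the read count scaled to library size, after TMM scaling, which adjusts library sizes for composition. Differences are log2 fold changes with their standard error (SE) and a Benjamini-Hochberg adjusted p over all 15734 genes tested, from edgeR's quasi-likelihood test, and a gene is called when that p is under 0.05. In bulk RNA, fewer cells of one kind and less RNA per cell cannot be told apart.

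The region before the start of 2 epithelial members that rose with Docetaxel is shown, because the factors that rose beside them are known for binding E-boxes. Both stretches are RefSeq sequence of build GRCh38.p14, written 5′ to 3′ on the gene's strand and ending before the outermost annotated start, with an E-box (CAGGTG or CACCTG) in capitals. DSP encodes desmoplakin, which ties desmosomes to keratin filaments, and its stretch is chr6:7541421-7541574 on the plus strand (154 bases). CLDN1 encodes claudin 1 of the tight junction, and its stretch is chr3:190322476-190322696 on the minus strand (221 bases).
DSP: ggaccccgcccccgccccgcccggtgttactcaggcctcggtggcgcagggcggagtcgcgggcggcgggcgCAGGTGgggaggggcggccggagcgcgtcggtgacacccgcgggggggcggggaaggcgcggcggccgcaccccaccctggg
CLDN1: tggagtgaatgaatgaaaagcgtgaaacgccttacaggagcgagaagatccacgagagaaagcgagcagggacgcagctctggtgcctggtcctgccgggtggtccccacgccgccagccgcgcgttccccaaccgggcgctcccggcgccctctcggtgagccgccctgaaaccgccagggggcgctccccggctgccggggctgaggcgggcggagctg
Counted from RefSeq's start for DSP, which lies downstream of the outermost annotated start where the stretch ends, the E-box shown begins 178 bases before the start. A second, 85 bases before it, lies past the end of the stretch. The CLDN1 stretch holds none. Windows of 250 bases were in the promoter table for 24 of the 42 members, and 13 members had at least 1 E-box on either strand. CDH1, EPCAM, ESRP1, GRHL2, SNAI1, SNAI2 and TWIST1 were among the members without a window. By window, since some genes have several starts, 12 of 24 epithelial windows (50%) and 3 of 16 mesenchymal windows (18.8%) held an E-box. Over all genes the share was 6143 of 35114 windows (17.5%). ZEB1 gave several of the mesenchymal windows and most of those with an E-box. The epithelial windows with an E-box include one of CLDN7, which had no counts. A GRHL-type motif, AACCNGGTT, was in 71 of all windows (0.202%) and in 0 member windows. A match is a description of letters only.

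Library totals ran from 11948720 to 16235041 counts, and 21836 to 25058 genes were detected per library. Mitochondrial genes took 0.722 to 2.82% of counts, with 1 library over 2% in each group (replicate 3 of Vehicle, Adapalene and Combo and replicate 4 of Docetaxel). TIMP1, the hairpin's target, was at 55 to 65 CPM in Vehicle, 56.2 to 71 in Docetaxel, 70.4 to 105 in Adapalene and 98.1 to 111 in Combo, and without cells lacking the hairpin these levels do not check the knockdown. Fibroblast markers (10 genes, 5 tested, 4 with at most 10 counts in any library) summed to 387 to 428 CPM in Vehicle, 191 to 269 in Docetaxel, 353 to 536 in Adapalene and 279 to 438 in Combo. That sum was mostly COL6A3, which fell with Docetaxel (385 ± 20.8 CPM in Vehicle, SD, n = 3, and 195 ± 27.2 in Docetaxel, n = 4). The other 4 tested markers did not fall with Docetaxel. FAP, a fibroblast protease, was called higher at very few counts (adjusted p = 0.0019), COL3A1 was at log2 0.59 ± 0.27 (adjusted p = 0.128), LUM at 0.74 ± 0.34 (adjusted p = 0.117) and COL1A1 at 0.04 ± 0.15 (adjusted p = 0.88). COL1A1 was called higher with Adapalene (0.73 ± 0.16, adjusted p = 0.00531) and Combo (0.65 ± 0.15, adjusted p = 0.00663). Leukocyte markers (12 genes, 2 tested, 8 with at most 10 counts) summed to 1.85 to 3.26, 7.24 to 8.95, 3.59 to 4.84 and 5.95 to 8.58 CPM in the same order. ITGAM, an integrin subunit, gave most of the rise with Docetaxel (0.568 ± 0.402 CPM in Vehicle and 5.18 ± 0.688 in Docetaxel). PTPRC, the other tested leukocyte marker, was called higher with Combo (log2 1.14 ± 0.30, adjusted p = 0.0128). It was not called with Docetaxel (0.48 ± 0.30, adjusted p = 0.257) or Adapalene (0.73 ± 0.32, adjusted p = 0.124). KLK3, a luminal prostate gene, had at most 1 count. The part of these other lists in the results was not tested.

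Per kilobase of exon, both programmes were present in Vehicle. The highest members were KRT19 (446 CPM per kb), VIM (258), KRT18 (218), KRT8 (150), KRT7 (115) and EPCAM (105). CDH1 (28.7), CDH2 (30.2) and FN1 (31.8) lay close together in the middle of the order. The factors came lower, at 7.39 for TWIST1, 2.65 for SNAI2, 2.33 for SNAI1, 1.77 for ZEB1 and 0.104 for ZEB2, the lowest of the 41. CLDN7, a tight junction claudin, had 0 counts in all 13 libraries, which allows up to 0.185 to 0.251 CPM by a floor of 3 counts, for counting error only. Whether this 0 reflects the cells or the assignment of reads was not tested, and 10.8% of its exon length is shared on the same strand with AC003688.1.

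Against Vehicle, 20 of the 41 tested members were called in at least 1 treatment, in both directions. Docetaxel called 11 of 41 members, 7 higher and 4 lower, against 25.9% of all genes tested (13.2% higher, 12.8% lower). Adapalene called 10, 4 higher and 6 lower, against 18.4% (9.25% higher, 9.16% lower). Combo called 11, 7 higher and 4 lower, against 25.8% (13.5% higher, 12.3% lower). The 3 comparisons share the Vehicle libraries. The shares of members called were 26.8%, 24.4% and 26.8%, near the background with Docetaxel and Combo. With Adapalene the share was above the background by only a few genes, and that difference was not tested. The count for Docetaxel was 6 without Vehicle replicate 2 or Docetaxel replicate 2 and 7 without Docetaxel replicate 1. For Adapalene it was 1 without Vehicle replicate 2, 3 without Adapalene replicate 1 and 4 without Vehicle replicate 1. It was 5 without Adapalene replicate 3 and 6 without Vehicle replicate 3. For Combo it was 17 without Adapalene replicate 3. Calls over all genes moved too. With Adapalene they went from 2896 to 1609 without Vehicle replicate 2 and to 1616 without Adapalene replicate 1. With Docetaxel they went from 4082 to 2347 without Vehicle replicate 2, and with Combo from 4058 to 4619 without Adapalene replicate 3.

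**Figure D1:**
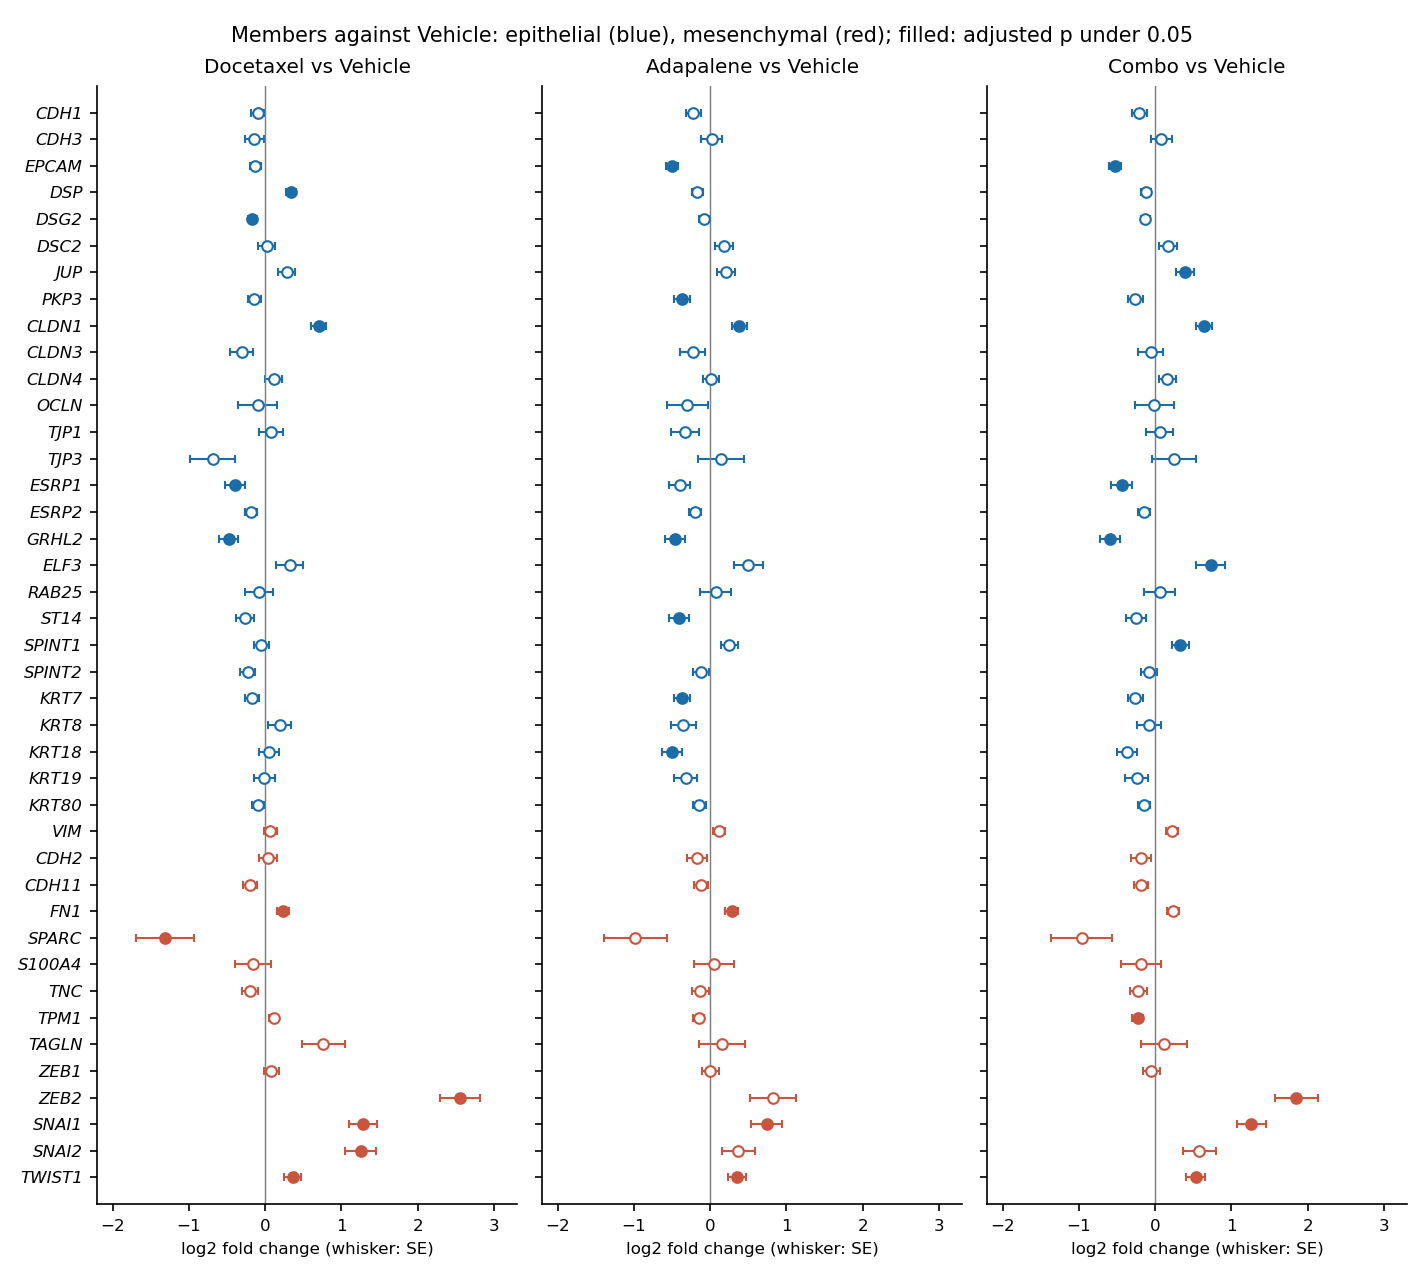
Log2 fold change against Vehicle (x axis, whiskers are SE) of the 41 tested members (rows) in Docetaxel, Adapalene and Combo, epithelial genes in blue and mesenchymal genes in red, filled where the adjusted p was under 0.05. ZEB2 lies farthest right with Docetaxel (2.55) and with Combo (1.85), while most members lie near 0.

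By arm, the median log2 fold change of the 27 tested epithelial members was -0.10 with Docetaxel, -0.20 with Adapalene and -0.08 with Combo. Over the 14 mesenchymal members it was 0.09, 0.08 and 0.04, and over all genes tested -0.02, 0.02 and 0.02. Epithelial calls were 2 higher and 3 lower with Docetaxel, 1 and 6 with Adapalene, and 4 and 3 with Combo. Mesenchymal calls were 5 higher and 1 lower, 3 and 0, and 3 and 1. In the same order, 18.5%, 25.9% and 25.9% of epithelial and 42.9%, 21.4% and 28.6% of mesenchymal members were called. Over all genes tested it was 25.9%, 18.4% and 25.8%, with 13.2%, 9.25% and 13.5% higher and 12.8%, 9.16% and 12.3% lower. Differences of these small lists from the background were not tested.

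Adapalene replicate 3 stood apart from the other Adapalene libraries. Its median log2 ratio to the Vehicle mean over the epithelial members was -0.39, against -0.09 and -0.10 in replicates 1 and 2, and its mesenchymal median was 0.15, against -0.01 and -0.00. It had the highest mitochondrial share, 2.82% of counts. The part of this share in the shift was not tested, and calls against Vehicle that were lost or gained without this library are given below.

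**Figure D2:**
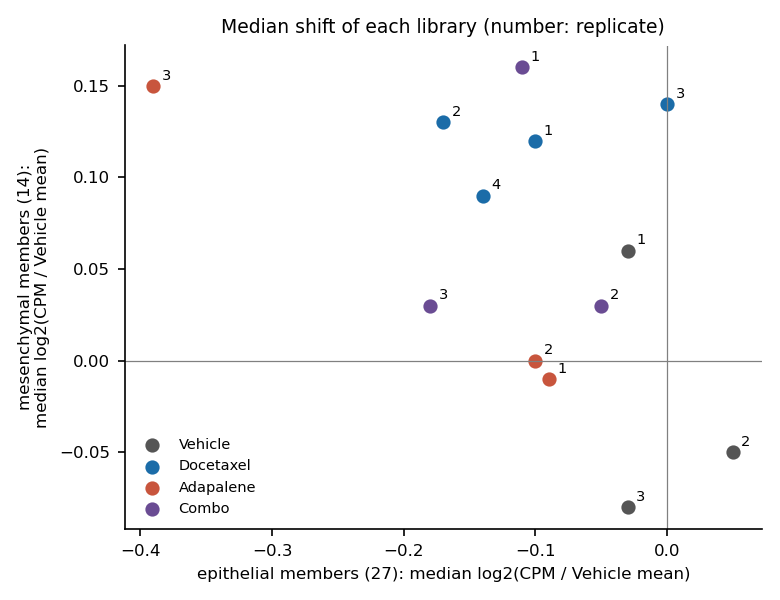
Each point is 1 library, with the median log2 ratio to the Vehicle mean over the 27 epithelial members (x axis) and over the 14 mesenchymal members (y axis), coloured by group and numbered by replicate. Adapalene replicate 3 lies alone at the left, at -0.39 and 0.15, and the Docetaxel libraries lie at 0.09 to 0.14 on the y axis.

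Of the 5 transcription factors of the mesenchymal arm, 4 rose with Docetaxel (median log2 fold change 1.25), 2 with Adapalene (0.37) and 3 with Combo (0.58), where 13.2%, 9.25% and 13.5% of all genes were called higher. DESeq2 called 4, 3 and 4 of them. None was called lower against Vehicle, and ZEB1 was called in none of the 6 comparisons. ZEB2, a zinc finger repressor (chromosome 2, 144364364 to 144524583), stood at 3.12, 2.41 and 2.29 CPM in Vehicle, 14.6, 15.8, 14.3 and 16.3 in Docetaxel, 4.52, 2.82 and 6.42 in Adapalene and 10, 5.88 and 12.2 in Combo. The Docetaxel libraries lay above all others, Combo lay between Docetaxel and Vehicle without touching either, and Adapalene overlapped both Vehicle and Combo. ZEB2 rose 5.86-fold with Docetaxel (log2 2.55 ± 0.26, adjusted p = 1.13e-05) and by log2 1.85 ± 0.28 with Combo (adjusted p = 0.000341). The difference with Adapalene was 0.82 ± 0.30 (adjusted p = 0.0685), and it passed the threshold with DESeq2 (0.029) and, in edgeR, without Adapalene replicate 2 (1.06, adjusted p = 0.0207) or Combo replicate 2 (0.0308). The Docetaxel and Combo calls held in all 19 alternatives.

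SNAI1 and SNAI2 encode the zinc finger repressors known as Snail and Slug. SNAI1 (chromosome 20, 49982999 to 49988886) stood at 5.07, 3.48 and 3.22 CPM in Vehicle, 8.6, 11.1, 9.37 and 8.89 in Docetaxel, 7.04, 6.29 and 6.17 in Adapalene and 11, 7.47 and 9.62 in Combo. All treated libraries lay above all Vehicle libraries, and Combo lay above Adapalene. SNAI1 rose by log2 1.28 ± 0.18 with Docetaxel (adjusted p = 0.000198), 0.74 ± 0.20 with Adapalene (adjusted p = 0.0193) and 1.26 ± 0.19 with Combo (adjusted p = 0.000363). The Adapalene call was lost without Vehicle replicate 2 (adjusted p = 0.0799), Vehicle replicate 3 (0.0694), Adapalene replicate 1 (0.0748) or the 4 libraries over 2% mitochondrial counts (0.0794).

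SNAI2 stood at 9.13, 6.89 and 10.9 CPM in Vehicle, 22.5, 27, 18.8 and 17.2 in Docetaxel, 10.6, 10.6 and 13.9 in Adapalene and 15.7, 9.65 and 14.8 in Combo. Only the Docetaxel libraries were separate from every other group. SNAI2 rose by log2 1.25 ± 0.20 with Docetaxel (adjusted p = 0.000521), a call that held in all 19 alternatives. The values with Adapalene and Combo were 0.37 ± 0.22 (adjusted p = 0.253) and 0.58 ± 0.22 (adjusted p = 0.0617). The Combo value passed the threshold with DESeq2 (0.0386) and without Vehicle replicate 3 (0.0404), Adapalene replicate 3 (0.0471) or Combo replicate 2 (0.015).

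TWIST1, a basic helix-loop-helix factor, stood at 14.9, 15.3 and 14.9 CPM in Vehicle, 18.8, 19.5, 19.1 and 19.9 in Docetaxel, 17.8, 17.1 and 22.8 in Adapalene and 19.6, 20.8 and 24.6 in Combo. Every treated library lay above every Vehicle library, and the treated groups overlapped each other. TWIST1 rose by log2 0.53 ± 0.12 with Combo (adjusted p = 0.00437), 0.36 ± 0.11 with Docetaxel (adjusted p = 0.0242) and 0.35 ± 0.12 with Adapalene (adjusted p = 0.0471). The Combo call held in all 19 alternatives. The Docetaxel call was lost without any 1 Vehicle replicate or without Docetaxel replicate 2 (adjusted p of 0.0555 to 0.0674). The Adapalene call was lost without any 1 Vehicle or Docetaxel replicate, without Adapalene replicate 1 or 3, or without Combo replicate 2, where the adjusted p reached 0.0513 to 0.2, and without Adapalene replicate 3 its log2 fold change was 0.22.

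ZEB1, the partner of ZEB2 in its family, differed between groups by less than the spread of its libraries. It stood at 17.9, 13.5 and 14.5 CPM in Vehicle, 16.6, 16.3, 16.5 and 15.1 in Docetaxel, 14.6, 14.8 and 16.5 in Adapalene and 14.9, 14.8 and 14.5 in Combo. The treated libraries all lay inside the Vehicle range. The log2 fold change with Docetaxel was 0.08 ± 0.10 (95% interval -0.15 to 0.30), with Adapalene 0.00 ± 0.11 (-0.24 to 0.24) and with Combo -0.05 ± 0.11 (-0.29 to 0.19).

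**Figure D3:**
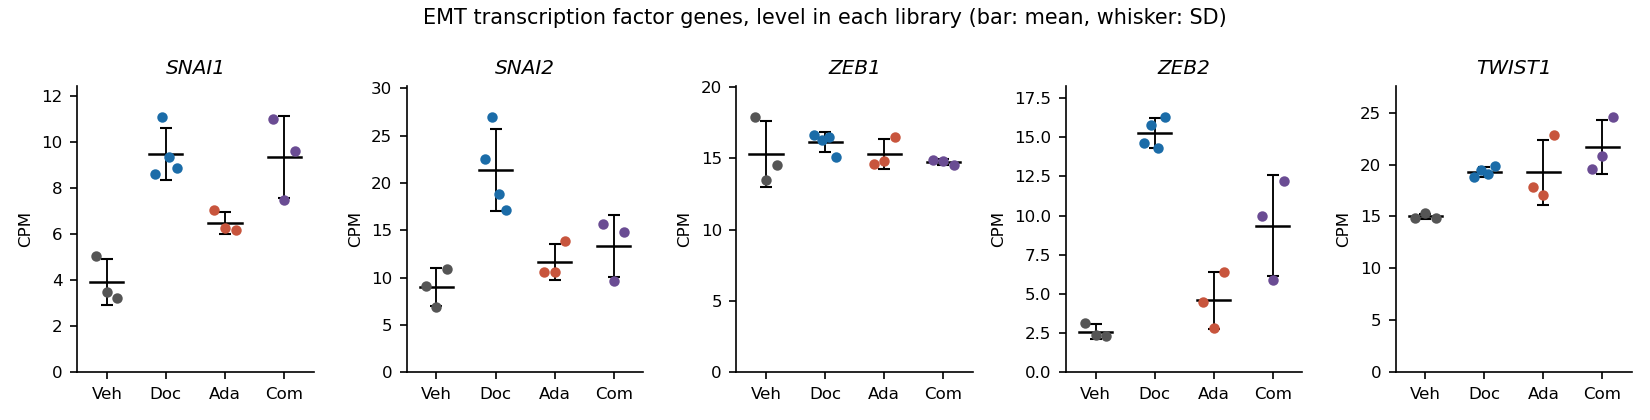
CPM (y axis, from 0) of SNAI1, SNAI2, ZEB1, ZEB2 and TWIST1 in each library of the Vehicle, Docetaxel, Adapalene and Combo groups, with the mean as a bar and the SD as a whisker. ZEB2 was at 14.3 to 16.3 CPM in Docetaxel and 2.29 to 3.12 in Vehicle, while the ZEB1 groups coincide.

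Of the 9 structural mesenchymal members, 1 rose and 1 fell with Docetaxel, 1 rose with Adapalene and 1 fell with Combo. These are 22.2%, 11.1% and 11.1% of them, where 25.9%, 18.4% and 25.8% of all genes were called. VIM, the intermediate filament vimentin, stood at 1393, 1363 and 1236 CPM in Vehicle, 1445, 1476, 1381 and 1302 in Docetaxel, 1447, 1371 and 1526 in Adapalene and 1649, 1529 and 1487 in Combo. Combo was separate from Vehicle, and the other 2 groups overlapped it. Its log2 fold change was 0.07 ± 0.08, 0.12 ± 0.08 and 0.22 ± 0.08 with Docetaxel, Adapalene and Combo, and none was called (adjusted p = 0.512, 0.321 and 0.0559), although DESeq2 called the Combo value (adjusted p = 0.0219). Of its exon length, 24.4% lies opposite antisense genes.

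CDH2 encodes N-cadherin, the cadherin of mesenchymal and neural cells. It stood at 172, 147 and 130 CPM in Vehicle, 163, 160, 149 and 141 in Docetaxel, 130, 111 and 157 in Adapalene and 151, 118 and 124 in Combo. All groups overlapped, and the log2 fold changes of 0.04 ± 0.12, -0.17 ± 0.13 and -0.19 ± 0.13 were not called. Without the 4 libraries over 2% mitochondrial counts the Adapalene value was -0.40 (adjusted p = 0.0285).

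FN1 encodes the matrix protein fibronectin. It stood at 573, 514 and 565 CPM in Vehicle, 675, 671, 619 and 612 in Docetaxel, 633, 657 and 711 in Adapalene and 704, 632 and 601 in Combo. All 10 treated libraries lay above the Vehicle libraries. FN1 rose by log2 0.23 ± 0.08 with Docetaxel (adjusted p = 0.0427) and 0.28 ± 0.08 with Adapalene (adjusted p = 0.0307), and with Combo the value was 0.23 ± 0.08 (adjusted p = 0.0516), past the threshold with DESeq2 (0.0298) and without Adapalene replicate 3 (0.0456) or Combo replicate 3 (0.0438). The Docetaxel call was lost without any 1 Vehicle replicate, Docetaxel replicate 1 or 2, Adapalene replicate 1 or 2, or Combo replicate 2 (adjusted p of 0.053 to 0.196), and the Adapalene call without Vehicle replicate 1 or 2 or any 1 Adapalene replicate (0.0529 to 0.137).

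SPARC encodes a secreted matrix-binding protein. It stood at 4.13, 8.95 and 14.3 CPM in Vehicle, 3.41, 2.89, 4.52 and 4.02 in Docetaxel, 4.45, 7.18 and 2.34 in Adapalene and 3.24, 6.82 and 4.18 in Combo. The Vehicle libraries were spread widely, and the lowest of them overlapped every treated group. SPARC fell by 1.31 on the log2 scale with Docetaxel (SE 0.38, adjusted p = 0.0195), and by less without Vehicle replicate 3, where the value was -0.83 (adjusted p = 0.144). The call was also lost without Vehicle replicate 2 (0.0528), Docetaxel replicate 1 (0.0532) or Docetaxel replicate 2 (0.0615), and without the 4 libraries over 2% mitochondrial counts (-0.87, adjusted p = 0.0939). The Adapalene and Combo values were -0.98 ± 0.41 and -0.96 ± 0.40 (adjusted p = 0.106 and 0.0904), and both passed the threshold without Vehicle replicate 1 (-1.32 and -1.31, adjusted p = 0.0352 and 0.0241), or without replicate 2 of their own group (-1.42 and -1.32, adjusted p = 0.0407 and 0.0406).

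Of the other structural members, TPM1, a tropomyosin of actin filaments, was at 128 to 133 CPM in Vehicle and 103 to 117 in Combo and fell by 0.23 on the log2 scale (SE 0.07, adjusted p = 0.0186). That call was lost without Vehicle replicate 1 (adjusted p = 0.0646) or Combo replicate 3 (0.0849), and 21.4% of TPM1's exon length lies opposite antisense genes. TAGLN, an actin-binding protein of smooth muscle, was at 6.01 to 8.17 CPM in Vehicle and 8.76 to 14.2 in Docetaxel without overlap, at log2 0.76 ± 0.28 (adjusted p = 0.0527). It passed the threshold with DESeq2 (0.0222) and without Docetaxel replicate 4, Adapalene replicate 2 or 3, or Combo replicate 2 (0.0174 to 0.0354). CDH11, TNC and S100A4, a cadherin, a matrix glycoprotein and a calcium-binding protein, were called in none of the 6 comparisons with all libraries. Without Combo replicate 1, CDH11 and TNC were called lower with Combo (-0.30 and -0.35, adjusted p = 0.0294 and 0.0285). Without the 4 libraries over 2% mitochondrial counts, both were called lower with Docetaxel (-0.24 and -0.30, adjusted p = 0.044 and 0.029).

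**Figure D4:**
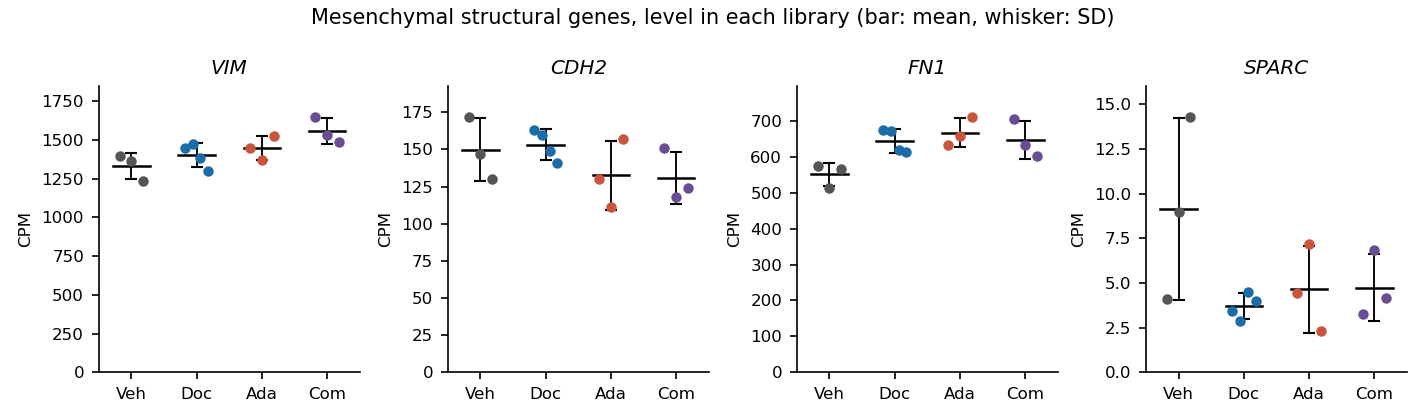
CPM (y axis, from 0) of VIM, CDH2, FN1 and SPARC in each library by group, with the mean as a bar and the SD as a whisker. FN1 is above its Vehicle range of 514 to 573 CPM in every treated library, and SPARC runs from 4.13 to 14.3 CPM among the 3 Vehicle libraries.

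On the epithelial side, the 8 cadherin and desmosome genes had 1 call higher and 1 lower with Docetaxel, 2 lower with Adapalene, and 1 higher and 1 lower with Combo. Each time 25% of them were called, where 25.9%, 18.4% and 25.8% of all genes were. CDH1, E-cadherin of the adherens junction, stood at 177, 176 and 178 CPM in Vehicle, 167, 157, 168 and 166 in Docetaxel, 166, 169 and 120 in Adapalene and 149, 165 and 146 in Combo. All treated libraries lay below the narrow Vehicle range, with Adapalene replicate 3 lowest. The log2 fold changes were -0.10 ± 0.09 (95% interval -0.30 to 0.10), -0.22 ± 0.10 (-0.44 to -0.01) and -0.21 ± 0.10 (-0.42 to 0.01), and none was called (adjusted p = 0.448, 0.14 and 0.142). Without Adapalene replicate 3 the Combo value, still -0.21, was called (adjusted p = 0.0259).

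EPCAM, an epithelial adhesion molecule (chromosome 2, 47345158 to 47387601), stood at 267, 259 and 264 CPM in Vehicle, 251, 235, 257 and 222 in Docetaxel, 191, 192 and 175 in Adapalene and 188, 196 and 164 in Combo. Both groups given Adapalene lay below all Docetaxel libraries, which lay below Vehicle. EPCAM fell by 0.50 on the log2 scale with Adapalene (SE 0.08, adjusted p = 0.000834) and by 0.53 with Combo (SE 0.08, adjusted p = 0.000328), and the Docetaxel value was -0.13 ± 0.07 (adjusted p = 0.218). Both calls held in all 19 alternatives.

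DSP stood at 260, 239 and 228 CPM in Vehicle, 306, 290, 324 and 311 in Docetaxel, 226, 218 and 201 in Adapalene and 235, 214 and 219 in Combo. The Docetaxel libraries lay above all others. The DSP stretch printed above holds 1 E-box, and the part of E-boxes in its changes was not tested. DSP rose by log2 0.34 ± 0.07 with Docetaxel (adjusted p = 0.00261), a call that held in all 19 alternatives. The values with Adapalene and Combo were -0.17 ± 0.07 and -0.12 ± 0.07 (adjusted p = 0.118 and 0.237).

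JUP, plakoglobin, was at 154 to 180 CPM in Vehicle and 202 to 226 in Combo and rose by log2 0.39 ± 0.12 (adjusted p = 0.0226). Without Adapalene replicate 3 its Docetaxel value of 0.28 was also called (adjusted p = 0.0349). The Combo call was lost without Vehicle replicate 1 or 3 or Combo replicate 1 or 2 (adjusted p of 0.053 to 0.0928). PKP3, a desmosomal plakophilin, was at 140 to 160 CPM in Vehicle and 99.4 to 127 in Adapalene and fell by 0.37 (SE 0.10, adjusted p = 0.0186), or by 0.28 without Adapalene replicate 3 (adjusted p = 0.0624), and the call was also lost without Vehicle replicate 2 (0.0859) or Adapalene replicate 1 (0.054). Its Combo value of -0.26 (adjusted p = 0.0665) was called without Adapalene replicate 2 (0.0495) or 3 (0.0359) or Combo replicate 2 (-0.34, adjusted p = 0.0335). DSG2, a desmosomal cadherin, was called lower with Docetaxel at -0.17 ± 0.06 (adjusted p = 0.0451), and that call was lost in 10 of the 13 fits that left out 1 library, with an adjusted p up to 0.188 (without Vehicle replicate 1). The exceptions, where it held, were the fits without Vehicle replicate 3, Adapalene replicate 3 or Combo replicate 3. CDH3 and DSC2, P-cadherin and a desmocollin, were called in none of the 6 comparisons with all libraries.

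Among the 6 tested tight junction genes, CLDN1 was the only one called against Vehicle with all libraries, and TJP3 was called lower with Docetaxel without Vehicle replicate 1 (-0.91, adjusted p = 0.0444) or Adapalene replicate 3 (-0.70, adjusted p = 0.0398). CLDN1 stood at 91.4, 91.1 and 90.3 CPM in Vehicle, 150, 133, 153 and 157 in Docetaxel, 116, 105 and 134 in Adapalene and 150, 119 and 155 in Combo. Every treated library lay above the Vehicle libraries. The CLDN1 stretch printed above holds no E-box, and the part of E-boxes in its changes was not tested. CLDN1 rose by log2 0.70 ± 0.10 with Docetaxel (adjusted p = 0.000159), 0.38 ± 0.10 with Adapalene (adjusted p = 0.0221) and 0.64 ± 0.10 with Combo (adjusted p = 0.0006). The Docetaxel and Combo calls held in all 19 alternatives. The Adapalene call was lost without any 1 Vehicle replicate (adjusted p of 0.0514 to 0.0675), Adapalene replicate 1 (0.0556) or Adapalene replicate 3 (0.0823, log2 fold change 0.28).

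CLDN4, another claudin, stood at 337, 377 and 369 CPM in Vehicle, 368, 388, 384 and 415 in Docetaxel, 380, 418 and 295 in Adapalene and 356, 452 and 400 in Combo. The groups overlapped, and the log2 fold changes of 0.11 ± 0.11, 0.01 ± 0.11 and 0.16 ± 0.11 were not called. CLDN3, OCLN (occludin) and TJP1 (the scaffold ZO-1) were called in none of the 6 comparisons with all libraries, and OCLN and TJP1 were near the bottom of the per-kilobase order, at 0.302 and 0.501 CPM per kb in Vehicle.

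The regulators of epithelial identity and the matriptase axis (8 genes) had 2 calls lower with Docetaxel, 2 lower with Adapalene, and 2 higher and 2 lower with Combo. These are 25%, 25% and 50% of them, where 25.9%, 18.4% and 25.8% of all genes were called. Whether so few genes differ from that background was not tested. GRHL2, a grainyhead-like factor that activates junction genes, stood at 68.6, 70.8 and 68.7 CPM in Vehicle, 49.6, 44.7, 52.5 and 52.2 in Docetaxel, 54.6, 58.6 and 38.5 in Adapalene and 48.3, 52.4 and 38 in Combo. Every treated library lay below the Vehicle libraries. GRHL2 fell by 0.48 on the log2 scale with Docetaxel (SE 0.12, adjusted p = 0.0114), by 0.46 with Adapalene (SE 0.13, adjusted p = 0.0289) and by 0.59 with Combo (SE 0.13, adjusted p = 0.00567). The Docetaxel and Combo calls held in all 19 alternatives. The Adapalene value was -0.30 without Adapalene replicate 3 (adjusted p = 0.0847), over 1.5 times closer to 0, and the call was also lost without any 1 Vehicle replicate (0.0532 to 0.0849).

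ESRP1, which directs epithelial splicing, stood at 201, 218 and 220 CPM in Vehicle, 149, 146, 182 and 169 in Docetaxel, 176, 188 and 119 in Adapalene and 159, 176 and 136 in Combo. Every treated library lay below the Vehicle libraries. ESRP1 fell by 0.40 with Docetaxel (SE 0.13, adjusted p = 0.0341) and by 0.44 with Combo (SE 0.14, adjusted p = 0.0294), and with Adapalene the value was -0.40 ± 0.14 (adjusted p = 0.056), past the threshold with DESeq2 (0.0364) and without Adapalene replicate 2 (-0.53, adjusted p = 0.0245) or Combo replicate 2 or 3 (0.0484 and 0.0475). The Docetaxel call was lost without any 1 Vehicle replicate, Docetaxel replicate 1 or 2, or Combo replicate 1 (adjusted p of 0.051 to 0.103). The Combo call was lost without Vehicle replicate 2 or 3 or Combo replicate 1 or 3 (0.0586 to 0.128). ESRP2, its paralog, was at 67.6 to 70.2 CPM in Vehicle and 54.5 to 67.3 in the treated libraries and was not called, except with Docetaxel without Docetaxel replicate 3 (-0.24, adjusted p = 0.0308).

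ELF3, an epithelial ETS factor, stood at 33.8, 43.2 and 44.9 CPM in Vehicle, 47.1, 47, 48 and 60.3 in Docetaxel, 64.2, 69.3 and 38.5 in Adapalene and 55.8, 82.5 and 63.9 in Combo. Docetaxel and Combo lay above Vehicle, and Adapalene replicate 3 fell inside the Vehicle range. ELF3 rose by log2 0.73 ± 0.19 with Combo (adjusted p = 0.0114), and leaving out Vehicle replicate 1 ended this call (log2 0.61, adjusted p = 0.0598). The values with Docetaxel and Adapalene were 0.32 ± 0.18 and 0.50 ± 0.19 (adjusted p = 0.206 and 0.0813). Without Adapalene replicate 3, ELF3 was called higher with Adapalene (0.71, adjusted p = 0.00609), as it was without the 4 libraries over 2% mitochondrial counts (0.79, adjusted p = 0.00371). Part of its exons (9.23%) is shared with another gene on the same strand.

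ST14 encodes the membrane protease matriptase, and SPINT1 and SPINT2 encode its Kunitz-type inhibitors. ST14 was at 315 to 382 CPM in Vehicle and 204 to 298 in Adapalene and fell by 0.41 on the log2 scale (SE 0.13, adjusted p = 0.0429). Without Adapalene replicate 3 the value was -0.26 (adjusted p = 0.138), and the call was also lost without Vehicle replicate 1 or 2, Adapalene replicate 1, Docetaxel replicate 1, 2 or 4, or Combo replicate 1 (0.0515 to 0.163). Its Docetaxel value of -0.26 ± 0.12 (adjusted p = 0.124) was called without Adapalene replicate 3 (-0.27, adjusted p = 0.0471). SPINT1 was at 139 to 156 CPM in Vehicle and 173 to 201 in Combo and rose by log2 0.33 ± 0.11 (adjusted p = 0.038). That call was lost without any 1 Vehicle or Combo replicate, or Docetaxel replicate 1 or 4 (0.0514 to 0.131). With Adapalene the SPINT1 value was 0.25 ± 0.11 (adjusted p = 0.128), and it was called without Adapalene replicate 3 (0.39, adjusted p = 0.00465). SPINT2 and RAB25, a small GTPase of apical transport, were called in none of the 6 comparisons with all libraries, and SPINT2 was called lower with Docetaxel without Vehicle replicate 3 (-0.31, adjusted p = 0.0471).

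Against Vehicle, edgeR called 2 of the 5 keratins lower with Adapalene and 0 with Docetaxel or Combo, where 0 and 2 were at an unadjusted p under 0.05 and DESeq2 called 0 and 2. Over all genes edgeR called 18.4% with Adapalene (9.16% lower), 25.9% with Docetaxel and 25.8% with Combo. Whether counts over 5 genes differ from these shares was not tested. Keratins 8 and 18 pair in simple epithelia. KRT18 stood at 772, 730 and 607 CPM in Vehicle, 720, 732, 857 and 605 in Docetaxel, 501, 454 and 537 in Adapalene and 651, 496 and 484 in Combo. Adapalene lay below Vehicle, and the other 2 groups overlapped Vehicle. KRT18 fell by 0.50 on the log2 scale with Adapalene (SE 0.13, adjusted p = 0.019), and this call did not hold when Vehicle replicate 1 or 2 or Adapalene replicate 1 or 2 was left out (adjusted p of 0.0569 to 0.0839). The Combo value was -0.37 ± 0.13 (adjusted p = 0.0548), and a fit blocked on replicate number gave -0.38 (adjusted p = 0.0388), which is past the threshold. It also passed with DESeq2 (0.0289) and without Vehicle replicate 3, Docetaxel replicate 3 or 4, Adapalene replicate 3 or Combo replicate 1 (-0.53 to -0.37, adjusted p of 0.011 to 0.0456). The KRT18 and KRT8 exons lie opposite each other over 16.3% and 7.63% of their length, and how reads were divided between them is uncertain. Both have many named pseudogenes (67 and 50), whose counts came to 0.366% and 1.58% of the gene's.

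KRT8 stood at 1153, 1093 and 856 CPM in Vehicle, 1169, 1167, 1409 and 970 in Docetaxel, 799, 688 and 943 in Adapalene and 1219, 879 and 846 in Combo. All 3 treated groups overlapped Vehicle, and the log2 fold changes of 0.19 ± 0.15, -0.35 ± 0.16 and -0.08 ± 0.16 were not called. Without the 4 libraries over 2% mitochondrial counts the Adapalene value was -0.60 (adjusted p = 0.00917).

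KRT19, a keratin of simple and ductal epithelia, stood at 968, 1136 and 1020 CPM in Vehicle, 970, 972, 1189 and 1000 in Docetaxel, 876, 971 and 648 in Adapalene and 881, 1062 and 708 in Combo. The groups overlapped, and the values of -0.01 ± 0.14, -0.32 ± 0.15 and -0.24 ± 0.15 were not called. KRT7, another simple-epithelial keratin, was at 441 to 503 CPM in Vehicle and 325 to 385 in Adapalene and fell by 0.37 (SE 0.10, adjusted p = 0.0182). Without Adapalene replicate 3 the value was -0.30 (adjusted p = 0.0621), and the call was also lost without Vehicle replicate 1 (0.0561) or 2 (0.0798). The KRT7 values with Docetaxel and Combo were -0.17 ± 0.09 and -0.26 ± 0.10 (adjusted p = 0.203 and 0.068). Combo passed with DESeq2 (0.048) and without Docetaxel replicate 3 (0.0367) or Adapalene replicate 3 (0.0461), and Docetaxel without Docetaxel replicate 3 (-0.25, adjusted p = 0.0447). KRT80 was called in none of the 6 comparisons with all libraries.

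**Figure D5:**
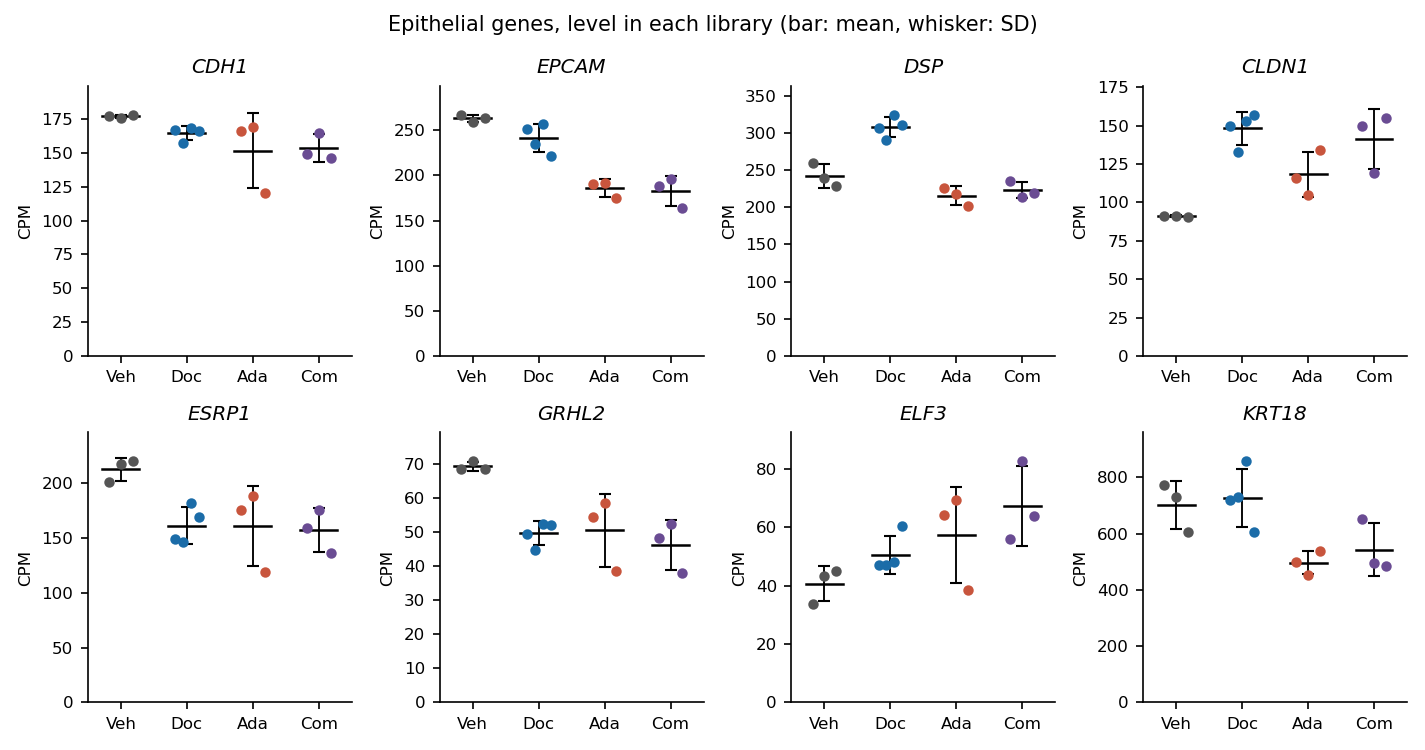
CPM (y axis, from 0) of CDH1, EPCAM, DSP, CLDN1, ESRP1, GRHL2, ELF3 and KRT18 in each library by group, with the mean as a bar and the SD as a whisker. EPCAM is at 164 to 196 CPM in both groups given Adapalene and 259 to 267 in Vehicle, and CLDN1 is above its Vehicle level of 90.3 to 91.4 in every treated library.

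Combo was then set against each single drug. Against Docetaxel, 8 of 41 members were called, 2 higher and 6 lower, where 24% of all genes were called (12.8% higher, 11.2% lower). The count was 4 without Docetaxel replicate 1 or 2 and 3 without Combo replicate 2. DSP fell by 0.47 on the log2 scale (SE 0.07, adjusted p = 0.000431), EPCAM by 0.40 (SE 0.08, adjusted p = 0.00181) and TPM1 by 0.34 (SE 0.06, adjusted p = 0.00161), and these 3 calls held in all 19 alternatives.

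Of the 4 factors that rose with Docetaxel, 2 were called lower with both drugs than with Docetaxel alone. ZEB2 was lower in Combo than in Docetaxel by log2 -0.71 ± 0.23 (adjusted p = 0.0334) and SNAI2 by -0.67 ± 0.19 (adjusted p = 0.0206). Combo replicate 2, the lowest Combo library for both, weighed on this, since without it the values were -0.46 (adjusted p = 0.142) and -0.49 (adjusted p = 0.0993). Both calls were also lost without Docetaxel replicate 1 (0.0626 and 0.0536) or 2 (0.0747 and 0.0714), and that of ZEB2 without Docetaxel replicate 4 (0.0598). For SNAI1 the same difference was -0.01 ± 0.17 (adjusted p = 0.964). TWIST1 was not called here either, with a higher mean in Combo (21.7 ± 2.63 CPM, SD) than in Docetaxel (19.3 ± 0.494).

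KRT18 was also lower in Combo than in Docetaxel, by log2 -0.42 ± 0.13 (adjusted p = 0.0254), although the 2 groups overlapped. That call was lost without Docetaxel replicate 1, 2 or 3 or Combo replicate 2 or 3 (adjusted p of 0.0528 to 0.107). The 2 members higher in Combo were SPINT1 at 0.38 ± 0.10 (adjusted p = 0.0151) and TJP3, a tight junction scaffold, at 0.94 ± 0.28 (adjusted p = 0.0256). SPINT1 lost its call without Combo replicate 2 (0.0802). TJP3 lost it without Combo replicate 2 (0.153, log2 0.65), Docetaxel replicate 1 (0.0657) or Docetaxel replicate 2 (0.0792).

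Against Adapalene, edgeR called 0 of 41 members, 4 were at an unadjusted p under 0.05, and DESeq2 called 1. Over all genes 6 were called (0.0381%). The member DESeq2 called was ZEB2, at log2 1.03 (adjusted p = 0.0354), and edgeR called it without Combo replicate 2 (1.27, adjusted p = 0.0359), while with all libraries edgeR gave 1.03 ± 0.26 (adjusted p = 0.444).

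The test of whether the combined effect differed from the sum of the single effects on the log2 scale (the interaction) called 0 members with edgeR, 10 were at an unadjusted p under 0.05, and DESeq2 called 2. Over all genes 227 were called (1.44%, 0.21% higher and 1.23% lower). The 2 members that DESeq2 called were ZEB2 and SNAI2. With edgeR their interactions were -1.52 ± 0.37 (adjusted p = 0.0592) and -1.05 ± 0.29 (adjusted p = 0.0894), and with DESeq2 -1.53 (adjusted p = 0.00283) and -1.06 (adjusted p = 0.0197). The edgeR value of ZEB2 passed the threshold without Adapalene replicate 2 (-1.77, adjusted p = 0.014) or Combo replicate 3 (-1.74, adjusted p = 0.0222), and that of SNAI2 without the 4 libraries over 2% mitochondrial counts (-1.24, adjusted p = 0.0449).

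Other genes of these pathways, from lists that hold no member, gave the following counts. Beside them, 13.2% of all genes tested were called higher and 12.8% lower with Docetaxel. These shares were 9.25% and 9.16% with Adapalene, and 13.5% and 12.3% with Combo. Of 37 tested junction genes, 6 rose and 7 fell with Docetaxel, 1 rose and 4 fell with Adapalene, and 3 rose and 5 fell with Combo. NECTIN4, a nectin of adherens junctions, rose with Adapalene (log2 0.73 ± 0.16, adjusted p = 0.00737) and Combo (0.76 ± 0.16, adjusted p = 0.00377), and PKP4, a plakophilin relative, fell in both (-0.49 ± 0.08 and -0.57 ± 0.08, adjusted p = 0.000834 and 0.000149). With Docetaxel, NECTIN4 was at 0.21 ± 0.15 (adjusted p = 0.337) and PKP4 fell by 0.23 (SE 0.07, adjusted p = 0.0291). Leaving out Docetaxel replicate 1, 2 or 4, or Vehicle replicate 1 or 2, ended that call (0.0587 to 0.141). CTNNA1, alpha-catenin, which links cadherins to actin, was low, at 0.993 ± 0.106 CPM in Vehicle and 1.92 ± 0.368 in Docetaxel. Its call with Docetaxel (adjusted p = 0.041) was lost without any 1 Vehicle replicate or Docetaxel replicate 2, 3 or 4 (0.0597 to 0.124).

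Of 10 other keratins tested, 4 rose with Docetaxel, 3 with Adapalene and 3 with Combo, and 1 fell with Combo. KRT17, a stress-responsive and basal keratin, was at 3.66 ± 0.648 CPM in Vehicle (SD, n = 3), 12.8 ± 2.04 in Docetaxel (n = 4), 18.1 ± 6.95 in Adapalene and 23.5 ± 8.9 in Combo (n = 3 each). It rose by log2 1.80 ± 0.31, 2.30 ± 0.32 and 2.68 ± 0.32 (adjusted p = 0.000829, 0.000329 and 5.97e-05), and these calls held in all 19 alternatives. KRT6A rose by 2.32 ± 0.26 with Docetaxel (adjusted p = 2.02e-05), 1.04 ± 0.29 with Adapalene (adjusted p = 0.022) and 1.31 ± 0.28 with Combo (adjusted p = 0.00365). Leaving out Adapalene replicate 1 or 2, or Vehicle replicate 1 or 3, ended the Adapalene call (0.0532 to 0.0921). Its interaction was -2.05 ± 0.37 (adjusted p = 0.0126). KRT6A and KRT17 have near-identical copies, so how reads were split among them is uncertain.

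Of 15 other epithelial regulators tested, 5 rose with Docetaxel, 6 rose and 1 fell with Adapalene, and 6 rose and 1 fell with Combo. KLF4, a zinc finger factor of differentiating epithelium, was at 19.4 ± 3.5 CPM in Vehicle, 51.7 ± 2.08 in Docetaxel, 32.1 ± 2.87 in Adapalene and 42.6 ± 4.04 in Combo. KLF4 rose by log2 1.41 ± 0.11, 0.72 ± 0.12 and 1.13 ± 0.12 with Docetaxel, Adapalene and Combo (adjusted p = 9.91e-07, 0.00094 and 2.11e-05). Its interaction was called, at -1.0 ± 0.16 (adjusted p = 0.00671), and held in all 18 alternatives that could be fitted. OVOL1, a zinc finger repressor of epithelial cells, rose with Docetaxel (0.52 ± 0.14, adjusted p = 0.0135), Adapalene (0.72 ± 0.15, adjusted p = 0.00431) and Combo (0.86 ± 0.15, adjusted p = 0.00072), and the Docetaxel call was lost without Vehicle replicate 1 (0.057) or 3 (0.0614).

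Of 10 other factors of the transition tested, edgeR called only RUNX2 with Docetaxel, where 25.9% of all genes were called. RUNX2 was at log2 0.40 ± 0.10 (adjusted p = 0.00877), and its call was lost without Vehicle replicate 1 (0.0516). With Adapalene and with Combo, edgeR and DESeq2 each called 0, where edgeR called 18.4% and 25.8% of all genes. In each, 1 was at an unadjusted p under 0.05. Whether counts this small over 10 genes differ from the background was not tested. Of 30 other structural mesenchymal genes, 6 rose and 4 fell with Docetaxel, 8 rose and 2 fell with Adapalene, and 9 rose and 2 fell with Combo. BGN, the matrix proteoglycan biglycan, was at 1.32 ± 0.0269 CPM in Vehicle, 1.21 ± 0.397 in Docetaxel, 7.12 ± 0.632 in Adapalene and 6.83 ± 0.445 in Combo. It rose by log2 2.42 ± 0.22 with Adapalene (adjusted p = 1.7e-05) and 2.36 ± 0.22 with Combo (adjusted p = 1.26e-05), and the Docetaxel value was -0.12 ± 0.25 (adjusted p = 0.758). FAP was called higher with Docetaxel (adjusted p = 0.0019) on few counts. It was at 0.0413 ± 0.0715 CPM in Vehicle (0 to 2 counts a library) and 0.959 ± 0.28 in Docetaxel (7 to 18 counts), and pooled counts of 2 and 55 gave a ratio of 22.1, with an exact 95% interval of 5.83 to 187 for counting error only. It was not called with Adapalene or Combo (adjusted p = 0.374 and 0.072).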

How the data were processed

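Polyadenylated RNA was sequenced as strand-preserving single reads of PC3 shTIMP1 cells in 13 libraries of 4 groups, per the labels' protocols. FastQC, DESeq2, STAR 2.7.10a and the build GRCh38.p13 appear in the submitters' processing notes, without their roles. The sources used here do not give how reads were assigned to genes (program, strand setting, multiply mapped reads). The authors deposited raw counts per gene and library, of which 61369 of 67882 identifiers had a symbol. Coordinates are from GENCODE release 29 (58366 identifiers found), which uses the same assembly.

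The filter was filterByExpr by group (minimum count 10, minimum total 15), which kept 15734 genes. They were scaled by TMM and tested in 1 model of 4 group means over all libraries with edgeR 4.0.16 in R 4.3.3. On counts simulated for Docetaxel against Vehicle over 15430 genes, 85% of 100 genes changed by log2 1 were called. So were 47% of 100 genes changed by 0.5, with 11 false calls. Only these genes changed, all above a minimum mean count, whereas in the data 25.9% of genes were called with Docetaxel. The recovery is therefore that of the simulated setting and does not give the sensitivity in these data. Alternatives were DESeq2 1.42.0, its size factors (RLE), no filter, the replicate number as a block, 2 groups only, each library left out, and no library over 2% mitochondrial counts. Pairs of replicates of a group differed by a chi-square per degree of freedom of 2.24 to 21.1, more than sampling noise, so each was counted once. Libraries with the same number deviated together between Vehicle and Combo (r of 0.257, 0.159 and 0.174 across 15734 genes). The other group pairs had at least 1 value under 0.1. The largest values, however, were between Adapalene and Combo, at 0.529 for replicate 2 and 0.415 for replicate 3, with 0.0202 for replicate 1. The labels do not say what the number marks.

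Members and lists were chosen with earlier results of these data known. Values per library are given for members called against Vehicle at an absolute log2 fold change of at least 0.5 and for the defining genes of each arm. Other lists are given by counts and at most 2 of their called genes with the largest change per comparison against Vehicle. Values of 1 further called gene of these lists are not reported here. Fibroblast and leukocyte markers were named after their values were seen. Promoter windows came from RefSeq (GRCh38.p14).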

Additional observations from a re-analysis of the deposited data

Results flagged for a closer look

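In 3 of 41 member genes, 1 of the 4 Docetaxel libraries lay far from the other 3 by Dixon's ratio of gap to range, above the 95% critical value; chance flags about 1 in 20 groups, and the other groups, of 3 libraries, were not tested. ELF3 was at 60.3 CPM in Docetaxel replicate 4 and at 47 to 48 in the others (ratio 0.92). ST14 was at 318 CPM in Docetaxel replicate 3 and at 275 to 281 in the others (ratio 0.866). KRT19 was at 1189 CPM in Docetaxel replicate 3 and at 970 to 1000 in the others (ratio 0.865).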

How the results depend on the processing

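Of 40 member calls, 16 held in all 19 alternatives, 24 were lost in at least 1 and 0 changed sign. With 1 library left out, the members called ranged from 6 to 15 with Docetaxel, 1 to 11 with Adapalene, 8 to 17 with Combo, 3 to 11 for Combo against Docetaxel, 0 to 1 for Combo against Adapalene and 0 to 1 for the interaction. Without the 4 libraries over 2% mitochondrial counts, the Docetaxel count was 17 in place of 11 and the interaction count 1 in place of 0. Fitting 2 groups only gave 6 with Adapalene in place of 10. Without the filter on low counts, 17 were called with Combo in place of 11, 1 for Combo against Adapalene and 5 for the interaction in place of 0. DESeq2 called 12, 12, 16, 8, 1 and 2 members in the 6 comparisons, where edgeR called 11, 10, 11, 8, 0 and 0. The replicate block gave 10, 10, 12, 8, 0 and 0 members in the 6 comparisons, and apart from KRT18 it changed no call of Combo against Vehicle. Over all genes with 1 library left out, 2347 to 4680 were called with Docetaxel (4082 with all libraries), 1494 to 3149 with Adapalene (2896), 2486 to 4619 with Combo (4058) and 2292 to 4365 for Combo against Docetaxel (3783). Combo against Adapalene called 6 genes, 128 without the filter, 39 with DESeq2, 2 with the block, 0 with 2 groups only and 0 to 33 with 1 library left out, and the interaction 227, 946 without the filter, 485 with DESeq2, 633 without the 4 libraries and 59 to 523 with 1 left out. Where a count moved, the cause was not tested. At the lowest levels depth limits what can be shown, as for OCLN, at about 2.04 CPM in Vehicle.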
